A study of Mus musculus with 11 samples.

Results

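NF-kB is a family of transcription factors made from 5 subunits, and the 10 genes described here encode those subunits together with inhibitors and kinases that set their activity. The genes were chosen by name, with earlier results of these data known. The subunits are Nfkb1 (p105, processed to p50), Nfkb2 (p100, processed to p52), Rel (c-Rel), Rela (p65) and Relb. The inhibitors are Nfkbia (IkB alpha), Nfkbie (IkB epsilon) and Tnfaip3 (A20), and the kinases are Chuk (IKK alpha) and Ikbkb (IKK beta). Of the 52550 genes listed, 14419 passed a filter on low counts, and all 10 of these genes were among them.

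In resting cells NF-kB dimers are held in the cytoplasm by IkB proteins or by the unprocessed p100 precursor. Receptors for TNF, IL-1, microbial products or antigen activate the IKK kinases, which mark IkB for degradation and release Rela- and Rel-containing dimers, while a slower route through Chuk processes p100 and frees Relb with p52. Nfkbia, Tnfaip3, Nfkb2 and Relb are themselves known NF-kB target genes, and in the epidermis the pathway is known for its part in keratinocyte growth arrest, barrier inflammation and T cell activation. Most of this control acts on proteins, which RNA levels do not measure.

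RNA was sequenced from 2 populations sorted from flank epidermis of 8-week-old mice, labelled as female: keratinocytes (KCs) and dendritic epidermal T cells (DETCs), the resident gamma-delta T cells of mouse epidermis. The LC-/- mice (DTA in the labels, huLangerin-DTA) carry diphtheria toxin subunit A under the human langerin promoter and lack Langerhans cells (LCs) from birth, and the wild type (WT) mice were their littermates. KCs were gated as live MHC-II-, CD45-, langerin-, c-kit- singlets and DETCs as live MHC-II-, CD45+, langerin-, c-kit- singlets, a gate with no T cell receptor marker. There were 3 WT and 3 LC-/- KC libraries, and 3 WT and 2 LC-/- DETC libraries, 11 in all.

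Libraries with the same number in their titles are taken here as the same mouse, which the labels do not state, so there is no DETC library of LC-/- mouse 1. The study describes each point as a separate animal; the labels do not, and the p-values measure the spread between these libraries. Each library held 13491075 to 19750440 reads assigned to genes, recovered from the deposited values. Each of the 20 DETC marker genes was higher in WT DETCs than in WT KCs and each of the 24 keratinocyte marker genes was lower. A keratinocyte signal remained in the DETC libraries: the median over the 24 keratinocyte genes of the DETC value as a share of the KC value of the same mouse was 15.3, 15.2 and 18.0% in WT mice 1 to 3, 26.0% in LC-/- mouse 2 and 16.1% in LC-/- mouse 3. Langerin (Cd207) was at 0 in all 3 LC-/- KC libraries and in the DETC library of LC-/- mouse 2, and at 4.42 normalized counts in that of LC-/- mouse 3, against 6.15 to 26.9 in WT KCs and 16.5 to 46.7 in WT DETCs. In bulk libraries such as these, fewer cells of a type and less RNA per cell cannot be told apart.

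In GRCm38 with GENCODE M21, the genes lie at chr3:135584655-135691547 (Nfkb1, minus strand), chr19:46304320-46312385 (Nfkb2, plus), chr11:23736847-23770970 (Rel, minus), chr19:5637483-5648130 (Rela, plus) and chr7:19606217-19629438 (Relb, minus). The inhibitors lie at chr12:55489410-55492647 (Nfkbia, minus), chr17:45555703-45563169 (Nfkbie, plus) and chr10:19000910-19015657 (Tnfaip3, minus), and the kinases at chr19:44073335-44107480 (Chuk, minus) and chr8:22659212-22706589 (Ikbkb, minus). Reads were counted over the exons of each gene. Exons of Nfkb2 overlap those of Psd on the opposite strand, but Psd held at most 31 reads in any library.

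Since several of these genes are known targets of NF-kB, the letters of their promoters are shown. RefSeq promoter windows of GRCm38.p6, which run from 250 bases before to 50 bases after a start site, were matched to 7 of the 10 genes, in 10 windows. Nfkb1, Relb and Ikbkb were not matched. The windows were searched on both strands for the NF-kB consensus, a motif of 10 bases, and 7 windows of 5 genes (Nfkb2, Rel, Nfkbia, Nfkbie and Tnfaip3) held at least 1 match, against 8.46% of the 32851 windows in the table. The matched windows are not all separate. Those of Nfkb2 at chr19:46305445-46305744 and chr19:46305680-46305979 overlap, and the same GGGACTTTCC counts in both. The windows of Rela and Chuk held none. Below are a subunit of each route (Nfkb2 at chr19:46304487-46304786, plus strand, and Rel at chr11:23770920-23771219, minus strand), the subunit that changed most without a match (Rela at chr19:5637291-5637590, plus strand) and the 2 most abundant inhibitors (Nfkbia at chr12:55492598-55492897 and Tnfaip3 at chr10:19015361-19015660, both minus strand), with the matches in capitals.
Nfkb2: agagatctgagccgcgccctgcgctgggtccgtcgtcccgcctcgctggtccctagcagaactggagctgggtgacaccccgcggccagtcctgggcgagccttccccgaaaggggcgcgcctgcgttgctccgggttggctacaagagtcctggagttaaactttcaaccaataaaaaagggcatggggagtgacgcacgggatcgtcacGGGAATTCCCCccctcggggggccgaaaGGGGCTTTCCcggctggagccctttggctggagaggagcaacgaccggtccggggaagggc
Rel: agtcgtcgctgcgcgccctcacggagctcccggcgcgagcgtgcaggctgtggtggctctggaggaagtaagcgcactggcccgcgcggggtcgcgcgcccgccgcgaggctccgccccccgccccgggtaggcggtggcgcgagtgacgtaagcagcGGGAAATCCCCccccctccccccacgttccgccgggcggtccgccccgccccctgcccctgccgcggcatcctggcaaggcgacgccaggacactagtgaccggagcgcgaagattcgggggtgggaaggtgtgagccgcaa
Rela: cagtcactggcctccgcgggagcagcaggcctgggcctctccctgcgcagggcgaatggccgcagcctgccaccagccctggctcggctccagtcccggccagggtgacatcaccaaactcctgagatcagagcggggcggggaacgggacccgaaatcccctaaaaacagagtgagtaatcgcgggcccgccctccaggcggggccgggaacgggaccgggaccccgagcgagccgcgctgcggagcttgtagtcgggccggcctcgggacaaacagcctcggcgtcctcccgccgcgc
Nfkbia: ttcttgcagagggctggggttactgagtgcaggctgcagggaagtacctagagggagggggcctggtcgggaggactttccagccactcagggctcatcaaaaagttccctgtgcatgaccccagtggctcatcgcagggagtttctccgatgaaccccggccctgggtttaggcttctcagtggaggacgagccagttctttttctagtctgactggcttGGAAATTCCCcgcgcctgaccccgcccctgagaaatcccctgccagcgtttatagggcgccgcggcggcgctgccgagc
Tnfaip3: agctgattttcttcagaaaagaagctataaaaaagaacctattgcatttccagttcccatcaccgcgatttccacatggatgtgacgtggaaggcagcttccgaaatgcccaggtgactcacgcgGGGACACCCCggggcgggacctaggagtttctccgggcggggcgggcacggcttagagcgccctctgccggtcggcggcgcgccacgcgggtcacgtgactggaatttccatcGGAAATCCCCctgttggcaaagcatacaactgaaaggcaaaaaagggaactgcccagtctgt

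The Nfkb2 window holds GGGAATTCCCC, where matches of both strands overlap, from 39 bases before the start site and GGGGCTTTCC from 11 bases before it. The Rel window holds GGGAAATCCCC, again overlapping matches, from 92 bases before the start site, and the Nfkbia window holds GGAAATTCCC from 29 bases before it. The Tnfaip3 window holds GGGACACCCC and GGAAATCCCC, from 125 and 12 bases before its start site. A match describes these letters only, and the absence of one says only that they are not in that window.

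Levels of different genes were compared per length, as TPM, in which reads are divided by exon length and then scaled to the same sum in every library. The inhibitors Nfkbia and Tnfaip3 stood above every subunit and kinase in all 4 groups. In WT KCs Nfkbia was at 3185 ± 316 TPM and Tnfaip3 at 1161 ± 87.1 TPM (SD, n = 3), above Rel at 254 ± 26.2, Rela at 250 ± 16.0, Nfkb2 at 120 ± 11.4, Nfkb1 at 102 ± 16.7 and Relb at 43.1 ± 4.51 TPM. The ranges of Rel and Rela overlapped, as did those of Nfkb2 and Nfkb1. Chuk was at 32.7 ± 2.81 TPM, and Ikbkb at 11.6 ± 1.11 and Nfkbie at 11.4 ± 2.22 TPM overlapped at the bottom. The exons of all Ikbkb transcripts together span 19078 bases, more than those of any other of these genes, which lowers its TPM.

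In WT DETCs the order at the top was reversed, with Tnfaip3 at 2704 ± 195 TPM above Nfkbia at 1588 ± 114 TPM (SD, n = 3). Nfkbie, near the bottom in KCs, stood at 199 ± 17.7 TPM, between Rel at 278 ± 7.96 and Rela at 126 ± 7.64 TPM, with no overlap on either side. Nfkb1 at 104 ± 8.99 and Nfkb2 at 94.1 ± 8.77 TPM overlapped, as did Chuk at 47.1 ± 8.19 and Relb at 42.4 ± 5.75 TPM, and Ikbkb was lowest at 16.4 ± 2.67 TPM. In LC-/- KCs Rela, at 383 ± 38.5 TPM (SD, n = 3), no longer overlapped Rel, at 283 ± 20.3 TPM. In LC-/- DETCs the order of the first 5 genes was that of WT DETCs.

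**Figure D1:**
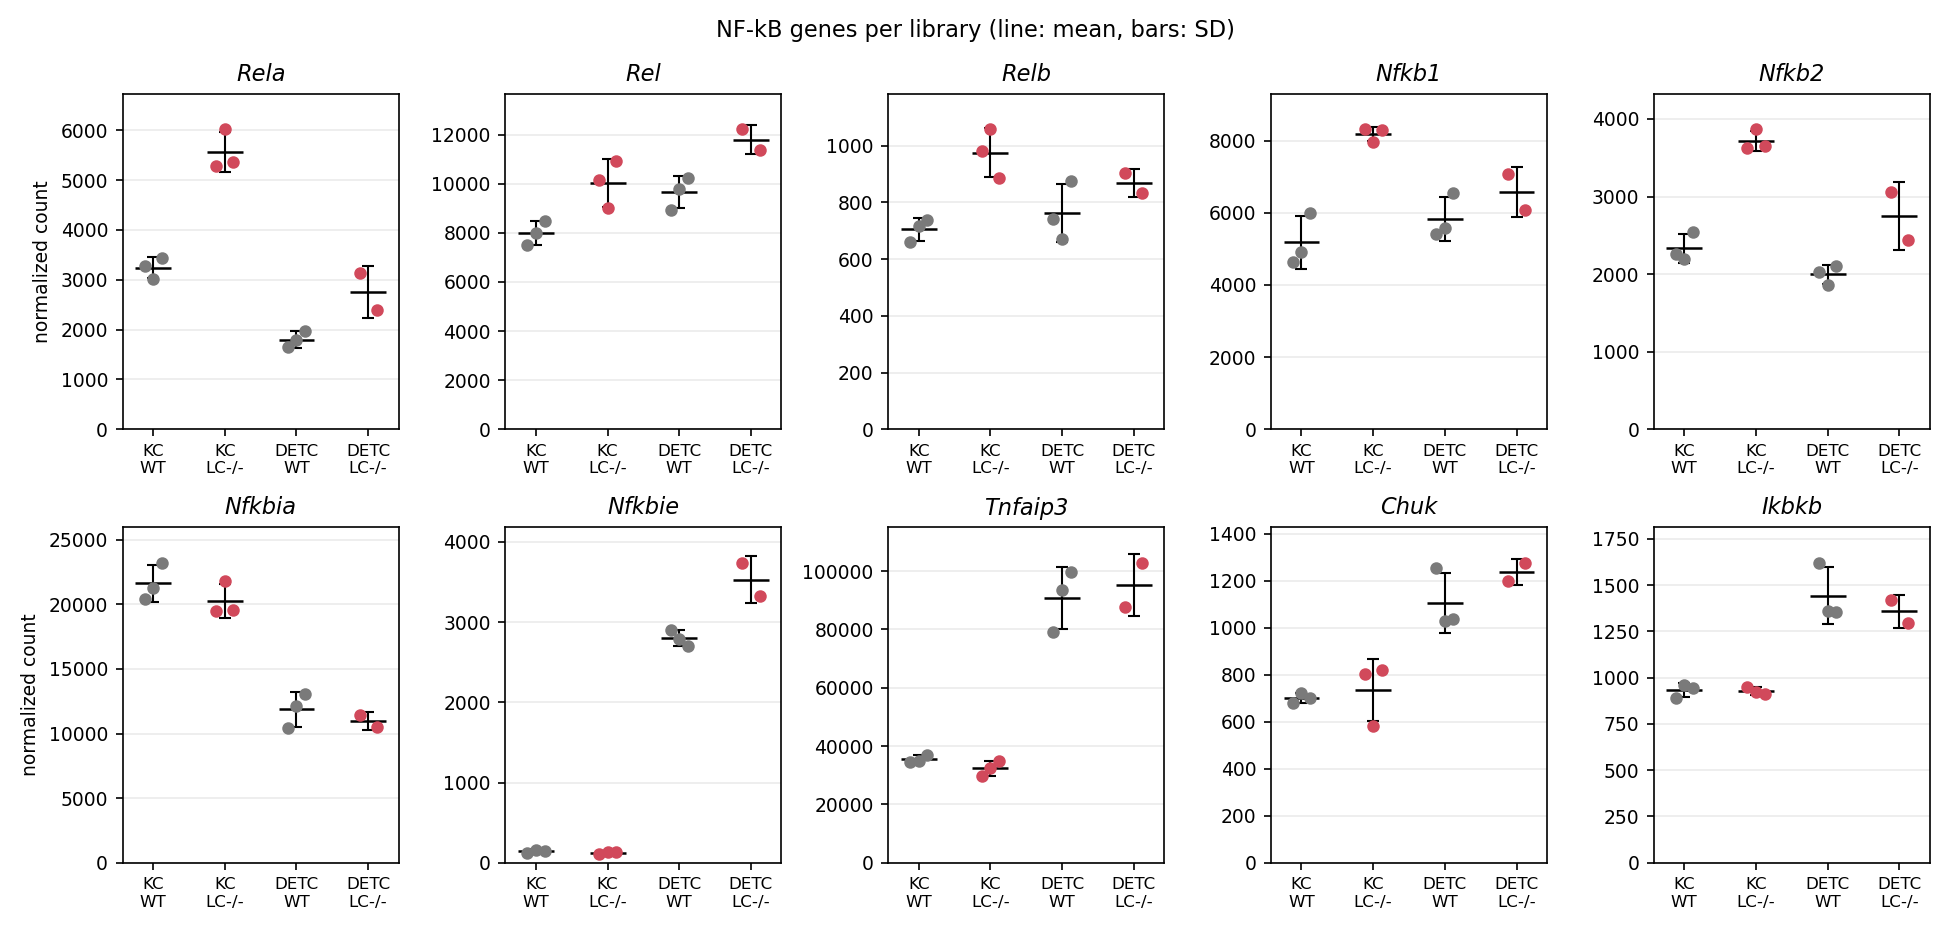
Normalized counts (y axis, linear from 0, a separate scale for each gene) of the 10 NF-kB genes in each library of the 4 groups (x axis), with points for libraries, lines for means and bars for the SD. In KCs the LC-/- points of the 5 subunits lie above all WT points, and Nfkbie is high in both DETC groups alone.

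In KCs 4 of the 5 NF-kB subunits were called higher in LC-/- than in WT mice. Rela, Nfkb2, Nfkb1 and Relb rose 1.71-, 1.60-, 1.59- and 1.38-fold, while Rel, at 1.25-fold, did not pass the test. None of the 3 inhibitors or 2 kinases passed it in either direction. All fold changes come from log2(normalized count + 1), and a gene was called at an adjusted p under 0.05 (limma, Benjamini-Hochberg over 14419 genes). So 4 of the 10 genes were called higher and 0 lower, where 5.37% of all genes tested were called higher and 1.85% lower. The median log2 fold change was 0.19 over the 10 genes and -0.01 over all genes.

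Rela, the transactivating subunit of the classical p50-p65 dimer, had normalized counts of 3269, 3017 and 3447 in the WT KC libraries and 5284, 6017 and 5372 in the LC-/- KC libraries. The lowest LC-/- library lay well above the highest WT library, and the log2 fold change was 0.78 (SE 0.08, adjusted p = 0.0193). Nfkb2, the p100 precursor that acts both as a subunit and as an inhibitor, had 2258, 2192 and 2544 in WT and 3628, 3864 and 3651 in LC-/- KCs. Its log2 fold change was 0.67 (SE 0.07, adjusted p = 0.0193).

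Nfkb1, which gives the p50 subunit, had normalized counts of 4624, 4905 and 6002 in WT KCs and 8307, 7962 and 8298 in LC-/- KCs. WT mouse 3 was the highest of the WT libraries and still below every LC-/- library, with a log2 fold change of 0.67 (SE 0.10, adjusted p = 0.0314). Relb, the partner of p52, had 661, 718 and 739 in WT and 983, 1058 and 888 in LC-/- KCs, again without overlap, and a log2 fold change of 0.46 (SE 0.08, adjusted p = 0.0385). Rel, the subunit best known from lymphocytes, had 7488, 8001 and 8467 in WT and 10143, 8989 and 10914 in LC-/- KCs. The groups of Rel did not overlap either, but the log2 fold change of 0.32 (SE 0.09) had an adjusted p of 0.0961, against 0.0266 with edgeR and 0.00577 with DESeq2.

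Thus all 5 subunits were higher in every LC-/- KC library than in any WT KC library, where 16.6% of all genes tested lay above without overlap. The number of calls depended on the libraries. It fell from 4 to 0 without WT mouse 1, WT mouse 2, LC-/- mouse 1 or LC-/- mouse 3, was 2 (Rela and Nfkb2) without LC-/- mouse 2 and was 3 (these and Nfkb1) without WT mouse 3, so that Relb was called in none of the 6 fits. Without WT mouse 1, WT mouse 2, LC-/- mouse 1 or LC-/- mouse 3 the calls over all genes fell from 1042 to between 5 and 16. The fold changes moved less, with log2 values of 0.72 to 0.82 for Rela, 0.63 to 0.74 for Nfkb2, 0.59 to 0.78 for Nfkb1 and 0.41 to 0.53 for Relb when any single library was left out.

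The 3 inhibitors had log2 intervals that included 0 in KCs. Nfkbia, which retains Rela-containing dimers in the cytoplasm, had normalized counts of 20453, 21244 and 23207 in WT and 19500, 21798 and 19564 in LC-/- KCs, and the groups overlapped. Its log2 fold change was -0.09 with a 95% interval of -0.30 to 0.11 (adjusted p = 0.518). Tnfaip3, the ubiquitin-editing enzyme A20 that shuts off signalling upstream of IKK, had 34420, 34844 and 36998 in WT and 29757, 32435 and 34980 in LC-/- KCs. Only LC-/- mouse 3 reached into the WT range, and the log2 fold change was -0.13 (interval -0.37 to 0.10, adjusted p = 0.424). Nfkbie, an IkB with low RNA in KCs, had 123, 163 and 152 in WT and 109, 134 and 139 in LC-/- KCs, with a log2 fold change of -0.19 (interval -0.59 to 0.20, adjusted p = 0.483).

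Both kinase genes overlapped between the groups. Ikbkb, the kinase of the classical route, had normalized counts of 888, 963 and 943 in WT and 952, 922 and 913 in LC-/- KCs, with a log2 interval of -0.11 to 0.10 (adjusted p = 0.991). Chuk, the kinase of the p100 route, had 679, 723 and 703 in WT KCs and 804, 583 and 821 in LC-/- KCs. LC-/- mouse 2 was the lowest and LC-/- mouse 3 the highest of the 6 libraries, so the log2 interval of -0.31 to 0.41 was wider (adjusted p = 0.859).

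Other cell types left small traces in the KC libraries. The summed normalized counts of the 20 DETC markers were 487 to 680 in WT and 369 to 521 in LC-/- KCs, against 316893 to 329895 in WT DETCs, and those of the 24 keratinocyte markers were 767289 to 801906 in WT and 769886 to 802942 in LC-/- KCs. Those of 15 LC genes were 6189 to 6800 in WT and 9571 to 10121 in LC-/- KCs. Most of the LC sum was Epcam, an adhesion molecule with normalized counts of 5799 to 6564 in WT and 9484 to 9970 in LC-/- KCs, and of the 12 LC genes tested Cd207, H2-Aa, Cd74 and Tyrobp were called lower and Epcam higher. The part of these cell types in the subunit values was not tested.

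**Figure D2:**
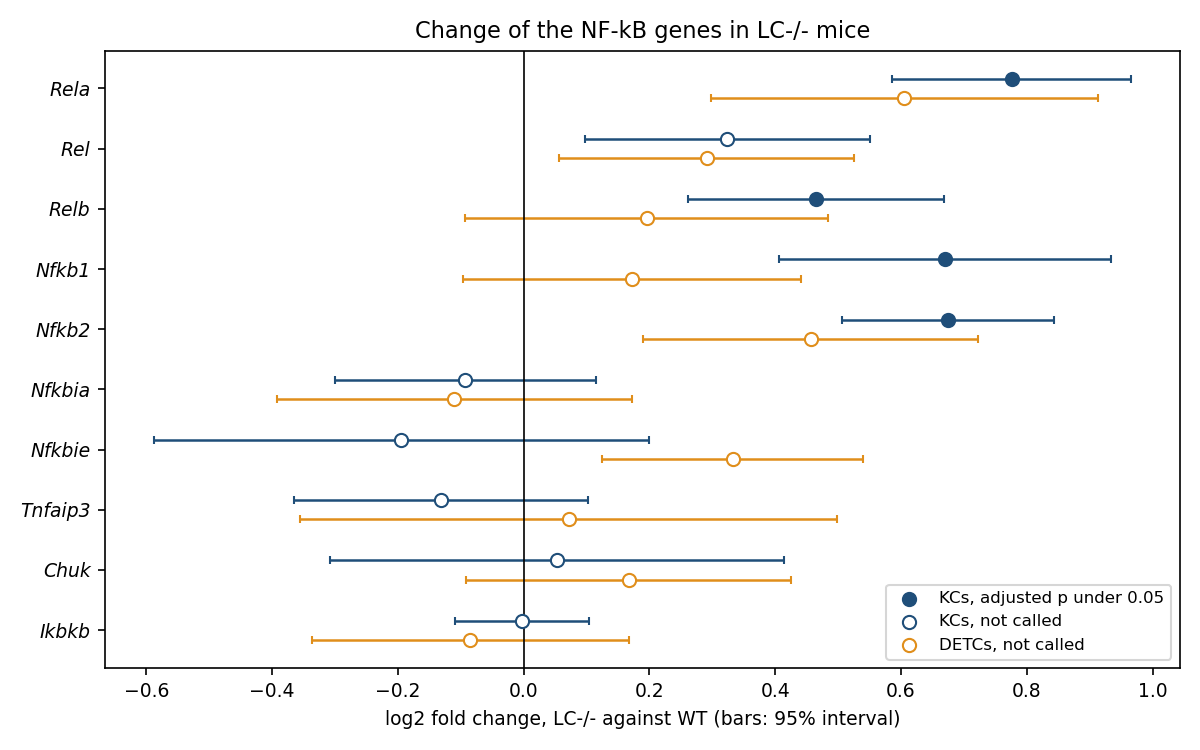
Log2 fold change of LC-/- against WT (x axis) for the 10 NF-kB genes (y axis) in KCs and in DETCs, with bars for the 95% interval from limma. In KCs the intervals of all 5 subunits lie above 0, while those of the 3 inhibitors and 2 kinases include it.

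In DETCs the same contrast gave no call among the 10 genes (limma), where 3.56% of all genes tested were called in either direction and 3.13% higher. At an unadjusted p under 0.05, 4 of them lay higher (Rela, Nfkb2, Nfkbie and Rel) and 0 lower, where 13.1% of all genes tested lay higher and 6.19% lower. EdgeR called 0 of the 10, where it called 3.35% of all genes, and DESeq2 called 2 higher, Rela (adjusted p = 0.00181) and Nfkb2 (adjusted p = 0.0170), where it called 6.02% of all genes higher. The median log2 fold change was 0.18 over the 10 genes and 0.02 over all genes.

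Rela had normalized counts of 1641, 1787 and 1974 in the WT DETC libraries, and of 3126 in LC-/- mouse 2 and 2386 in LC-/- mouse 3. Both LC-/- libraries were above all WT libraries, and the log2 fold change was 0.60 (SE 0.13, adjusted p = 0.0520). Nfkb2 had 2028, 1859 and 2101 in WT DETCs and 3063 and 2442 in LC-/- mice 2 and 3, with a log2 fold change of 0.46 (SE 0.12, adjusted p = 0.0750). For both genes LC-/- mouse 2, the DETC library with the largest keratinocyte share, was the highest. Without LC-/- mouse 2 the log2 values were 0.41 for Rela (adjusted p = 0.233) and 0.29 for Nfkb2 (adjusted p = 0.338), and without LC-/- mouse 3 they were 0.80 (adjusted p = 0.0212) and 0.62 (adjusted p = 0.0336). Each of these fits leaves a lone LC-/- library, assumed to vary as the WT libraries do.

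Rel had normalized counts of 8939, 9784 and 10216 in WT DETCs and 12205 and 11382 in LC-/- DETCs, without overlap, and a log2 fold change of 0.29 (SE 0.10, adjusted p = 0.169). Nfkbie, which holds Rel- and Rela-containing dimers and is known from lymphoid cells, had 2905, 2792 and 2701 in WT and 3738 and 3320 in LC-/- DETCs. The groups did not overlap, and the log2 fold change of 0.33 (SE 0.09) had an adjusted p of 0.0907. Together with Rela and Nfkb2, 4 of the 10 genes thus lay above WT without overlap, and 21.3% of all genes did so. With 3 libraries against 2, such a separation was frequent.

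The other 6 genes had overlapping groups in DETCs. Nfkb1 had normalized counts of 5416, 5564 and 6537 in WT and 7061 and 6089 in LC-/- DETCs (log2 0.17, interval -0.10 to 0.44, adjusted p = 0.474), and Relb had 741, 673 and 874 in WT and 903 and 835 in LC-/- DETCs (log2 0.20, interval -0.09 to 0.48, adjusted p = 0.450). LC-/- mouse 2 was the highest library for both. Nfkbia had 10402, 12151 and 13093 in WT and 11467 and 10476 in LC-/- DETCs (log2 -0.11, interval -0.39 to 0.17, adjusted p = 0.680). Tnfaip3, the most abundant of the 10 genes in DETCs, had 79087, 93613 and 99803 in WT and 87829 and 102779 in LC-/- DETCs, with an interval of -0.36 to 0.50 that covers changes in either direction (adjusted p = 0.877).

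Chuk had normalized counts of 1254, 1027 and 1036 in WT and 1197 and 1276 in LC-/- DETCs (log2 0.17, interval -0.09 to 0.43, adjusted p = 0.471). Ikbkb had 1619, 1357 and 1353 in WT and 1421 and 1294 in LC-/- DETCs (log2 -0.08, interval -0.34 to 0.17, adjusted p = 0.731). WT mouse 1 was the highest of the WT DETC libraries for both kinases.

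The keratinocyte signal in DETC libraries touches most the genes with more RNA in KCs than in DETCs. Among these 10, by group means, they were Nfkbia, Rela and Nfkb2 in WT mice, and Nfkb1 and Relb as well in LC-/- mice. Over the 24 keratinocyte markers the median log2 fold change in DETCs was 0.31, with 21 above 0 and none called. When the KC value of the same mouse was multiplied by the keratinocyte share of its DETC library, the product was 25.7 to 31.5% of the Rela value in WT DETCs, 50.0% in LC-/- mouse 2 and 36.2% in LC-/- mouse 3. For Nfkb2 it was 17 to 22% in WT, 33% in LC-/- mouse 2 and 24% in LC-/- mouse 3. For Nfkbia it was 27 to 32% in WT, 49% in LC-/- mouse 2 and 30% in LC-/- mouse 3, and for Nfkbie it was at most 1.02% in any DETC library. For Nfkb1 it was 13 to 17% in WT, 29% in LC-/- mouse 2 and 22% in LC-/- mouse 3, and for Relb 14 to 16% in WT, 30.4% in LC-/- mouse 2 and 17.1% in LC-/- mouse 3.

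With that product subtracted, an alternative chosen after the data were seen, Rela was left with 1142, 1327 and 1352 in WT and 1562 and 1523 in LC-/- DETCs. The remainder was still above all WT libraries, with a log2 fold change of 0.28 (adjusted p = 0.265) in place of 0.60. Nfkb2 went from 0.46 to 0.27 (adjusted p = 0.216), Nfkb1 from 0.17 to -0.033 (adjusted p = 0.890) and Relb from 0.20 to 0.034 (adjusted p = 0.938). Nfkbia went from -0.11 to -0.35 (adjusted p = 0.365). Nfkbie stayed at 0.33 (adjusted p = 0.169) and Rel went from 0.29 to 0.23 (adjusted p = 0.277). After this subtraction 0 genes of 14419 were called by limma, 2370 had an unadjusted p under 0.05, and the median log2 fold change of all genes was -0.10.

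**Figure D3:**
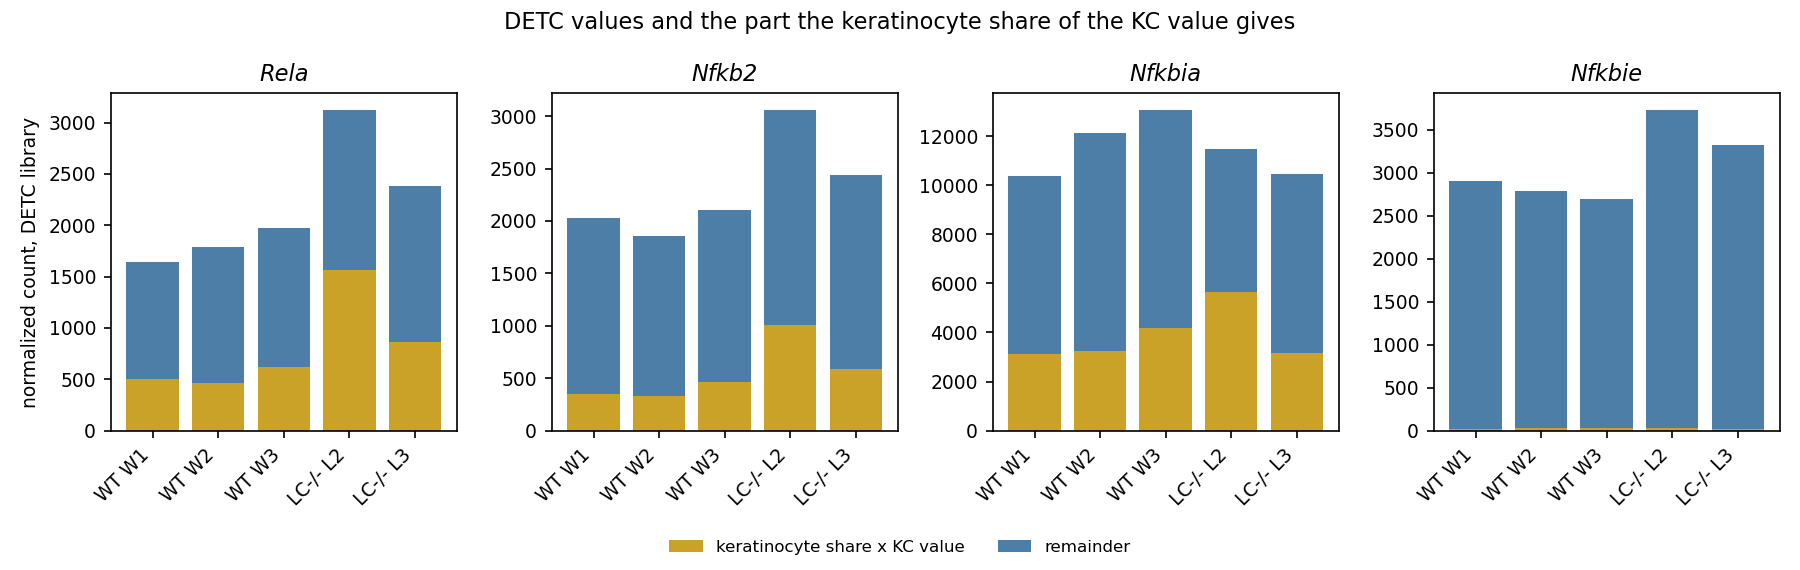
Normalized counts of NF-kB genes in each DETC library (bars from 0, x axis by mouse), divided into the product of the keratinocyte share and the KC value of the same mouse and the remainder. For Rela the product reaches 50.0% of the bar in LC-/- mouse 2, and for Nfkbie it is at most 1.02%.

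Whether the LC-/- effect itself differed between the populations was tested as an interaction over all 11 libraries. None of the 10 genes was called by limma, where 0.798% of all genes tested were, by edgeR, where 0.791% were, or by DESeq2, where 2.16% were. At an unadjusted p under 0.05 there were 2, where 11.3% of all genes tested had one. The effect on Nfkb1 in DETCs was lower than that in KCs by 0.50 on the log2 scale (interval -0.85 to -0.14, unadjusted p = 0.0101, adjusted p = 0.249). The effect on Nfkbie was higher by 0.53 (interval 0.14 to 0.92, unadjusted p = 0.0120, adjusted p = 0.267). For Rela the difference was -0.17 (interval -0.52 to 0.18, adjusted p = 0.766) and for Nfkb2 -0.22 (interval -0.52 to 0.09, adjusted p = 0.634).

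Ratios of 2 genes within a library do not depend on the size factor. They were chosen after the values were seen and are given as a description, without a test. Rela reads per Nfkbia read were 0.160, 0.142 and 0.149 in WT KCs and 0.271, 0.276 and 0.275 in LC-/- KCs. In DETCs they were 0.158, 0.147 and 0.151 in WT and 0.273 and 0.228 in LC-/-. The WT means were alike in both populations, at 0.150 ± 0.009 in KCs and 0.152 ± 0.005 in DETCs (SD, n = 3 each), although both genes were lower in DETCs.

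Nfkb2 reads per Nfkbia read were 0.108 ± 0.004 in WT and 0.183 ± 0.005 in LC-/- KCs (SD, n = 3 each), and 0.169 ± 0.022 (n = 3) in WT and 0.250 ± 0.024 (n = 2) in LC-/- DETCs. The groups did not overlap within either population. Relb reads per Nfkb2 read, the 2 subunits of the p100 route, were 0.304 ± 0.021 in WT and 0.263 ± 0.017 in LC-/- KCs (SD, n = 3 each), and also 0.381 ± 0.030 (n = 3) and 0.318 ± 0.033 (n = 2) in WT and LC-/- DETCs. They were lower in every LC-/- library than in any WT library of the same population. The keratinocyte signal, with its lower ratio, is part of the DETC ratios, most in LC-/- mouse 2. With the keratinocyte product subtracted from both genes, LC-/- mouse 3 lay above WT mouse 2, so the DETC groups overlapped. How often other pairs of genes separate in this way was not computed.

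**Figure D4:**
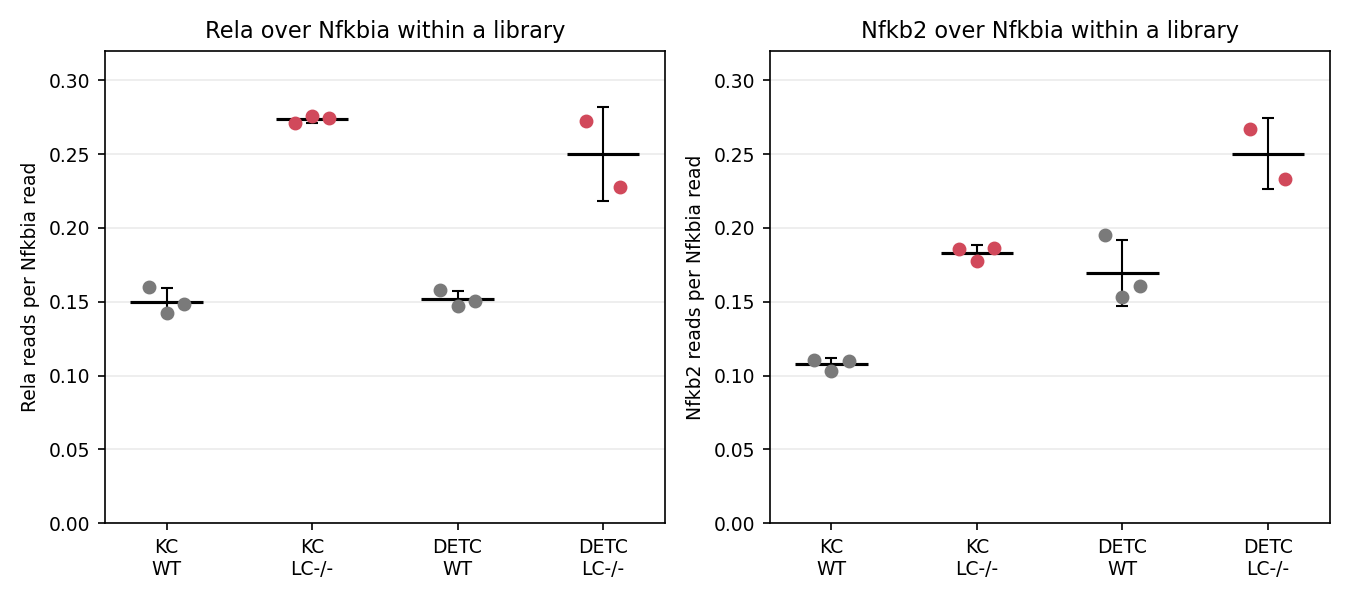
Rela reads per Nfkbia read (left) and Nfkb2 reads per Nfkbia read (right) within each library (y axes, linear from 0) for the 4 groups (x axis), with points for libraries, lines for means and bars for the SD. The LC-/- libraries of each population lie above all its WT libraries in both plots.

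WT DETCs and WT KCs differed in 8 of the 10 genes, 5 higher and 3 lower in DETCs, where 41.0% of all genes tested were called higher and 35.1% lower. The widest gap was in Nfkbie, with 2905, 2792 and 2701 normalized counts in WT DETCs and 123, 163 and 152 in WT KCs. It was 19.2-fold higher in DETCs (log2 4.26, SE 0.11, adjusted p = 9.62e-10). Tnfaip3 was 2.55-fold higher (log2 1.35, SE 0.15, adjusted p = 2.75e-05), and its 3 DETC libraries lay far above the 3 KC libraries. Both kinases were higher in DETCs, Chuk by 0.65 (SE 0.09, adjusted p = 0.000107) and Ikbkb by 0.63 (SE 0.09, adjusted p = 0.000102) on the log2 scale.

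Nfkbia and Rela were lower in DETCs, with log2 differences of -0.87 (SE 0.11, adjusted p = 6.94e-05) and -0.85 (SE 0.09, adjusted p = 1.21e-05). The subunits Nfkb2, at -0.22 (adjusted p = 0.0301), and Rel, at 0.27 (adjusted p = 0.0175), differed by much less. Nfkb1 at 0.18 (interval -0.08 to 0.44, adjusted p = 0.183) and Relb at 0.10 (interval -0.13 to 0.34, adjusted p = 0.375) did not pass the test. Under quantile normalization, which moved the median of all genes from 0.07 to -0.24, Rel, Nfkb1 and Relb were slightly lower in DETCs (log2 -0.066, -0.12 and -0.088), and none of them was called. Relative to those medians, each of the 3 genes lay above the median of all genes under both scalings. A keratinocyte share of 15.2 to 18.0% is part of these WT DETC values, and its part in the differences was not tested.

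The genes most like 4 of these genes across the 11 libraries were named by the smallest root mean square difference of centred log2 values, over 14039 genes. For Rel they included Mynn (0.047) and Pias1 (0.064), and for Tnfaip3 they were Rnf43 (0.068), Dnajc18 (0.078) and Rtca (0.093). For Nfkbia they were Tnrc18 (0.077), Ctsb (0.085) and Atp5o (0.086), and for Relb Plekhg3 (0.096), Dusp8 (0.097) and Kansl3 (0.097). None of the genes named here belongs to the pathway lists, and the likeness includes the difference between the sorted populations.

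The other lists of the pathway had median log2 fold changes of -0.08 to 0.19 in KCs. Of the 10 other IkB proteins and IKK partners, 2 were higher in LC-/- KCs and 0 lower. Of all genes tested 5.37% were called higher and 1.85% lower there. The median log2 fold change of the 10 was 0.01. Nfkbib (IkB beta) rose from 758 ± 25.4 to 1080 ± 57.5 normalized counts (SD, n = 3 each, log2 0.51, adjusted p = 0.0193). Tbk1, an IKK-related kinase of the interferon response, rose from 562 ± 58.4 to 790 ± 28.5 (log2 0.50, adjusted p = 0.0362). No gene of this list was called in DETCs, where 3.56% of all genes tested were called in either direction. The largest difference of the list there was that of Nfkbil1 (log2 0.47, adjusted p = 0.0869), and its median was 0.16.

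Among the receptors that feed NF-kB, 17 of 20 were tested, with 1 higher and 1 lower in LC-/- KCs (median log2 0.02). Of all genes tested 5.37% were called higher and 1.85% lower in KCs. Tnfrsf12a, the TWEAK receptor, rose from 3697 ± 239 to 5081 ± 302 normalized counts (SD, n = 3 each, log2 0.46, adjusted p = 0.0286), and Tnfrsf19, also called TROY, fell from 3586 ± 303 to 2405 ± 172 (log2 -0.58, adjusted p = 0.0274). In DETCs, where 3.13% of all genes tested were called higher, 1 was higher and 0 lower (median 0.08). This was Tnfrsf1b, the TNF receptor TNFR2, which had 27411, 33118 and 33500 in WT and 49551 and 50523 in LC-/- DETCs (log2 0.68, adjusted p = 0.0439). Its normalized counts in KCs were only 8.20 to 29.4.

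All 22 upstream adaptors and kinases were tested. In LC-/- KCs 4 were higher and 1 lower (median log2 0.11), where 5.37% of all genes tested were called higher and 1.85% lower. The higher genes were Traf2 (0.41, adjusted p = 0.0487) and Traf6 (0.39, adjusted p = 0.0371), ubiquitin ligases that link receptors to IKK, Ticam1, the TLR3 adaptor (0.38, adjusted p = 0.0347), and Tab2 (0.17, adjusted p = 0.0471). Tab1, a partner of the kinase TAK1, fell by 0.53 (adjusted p = 0.0489), from 140 ± 5.20 to 96.9 ± 9.65 normalized counts (SD, n = 3 each). In DETCs, where 3.13% of all genes tested were called higher, 1 was higher and 0 lower (median 0.09). It was Ripk1, the kinase of the TNF receptor complex, with 1409, 1584 and 1615 in WT and 2164 and 2157 in LC-/- DETCs (log2 0.49, adjusted p = 0.0327).

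Of the CARD-BCL10-MALT1 module, which carries antigen receptor signals to IKK, 6 of 7 genes were tested and none was called in either population, with medians of 0.09 in KCs and 0.14 in DETCs. The largest differences were Prkcq in KCs (log2 -0.81, adjusted p = 0.155) and Card10 in DETCs (log2 0.61, adjusted p = 0.199). Among 14 other deubiquitinases and brakes, 1 was higher in each population and 0 lower, with medians of 0.19 in KCs and 0.15 in DETCs. Of all genes tested 5.37% were called higher in KCs and 3.13% in DETCs. Tollip, an inhibitor of IL-1 receptor signalling, was higher in LC-/- KCs (log2 0.37, adjusted p = 0.0415), and Tax1bp1, an adaptor of A20, was higher in LC-/- DETCs (log2 0.49, adjusted p = 0.0340).

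The classical NF-kB target genes, of which 32 of 35 were tested, did not move one way. In LC-/- KCs 3 were higher and 2 lower, where 5.37% of all genes tested were called higher and 1.85% lower. The median log2 fold change of the targets was -0.08. Plaur, the urokinase receptor, had 250, 242 and 363 normalized counts in WT and 979, 768 and 992 in LC-/- KCs (log2 1.69, SE 0.20, adjusted p = 0.0207). Fas, the death receptor, and Cxcl16, a chemokine of lymphocytes, rose by log2 values of 0.68 (adjusted p = 0.0251) and 0.65 (adjusted p = 0.0193). Tnf, the cytokine that starts the classical route, had 179, 193 and 237 in WT KCs and 122, 105 and 127 in LC-/- KCs, and fell by 0.77 (SE 0.14, adjusted p = 0.0426). Tnfaip2 was also called lower in KCs (adjusted p = 0.0248), but its 8.20, 14.8 and 11.2 normalized counts in WT and 2.20, 2.04 and 3.15 in LC-/- KCs are a few reads per library, with the LC-/- values at or under the floor of 3 reads.

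In DETCs 2 target genes were higher and 0 lower, where 3.13% of all genes tested were called higher. The median log2 fold change of the targets was 0.09. Ptgs2, the inducible cyclooxygenase, had normalized counts of 1101, 872 and 1154 in WT and 2738 and 1879 in LC-/- DETCs (log2 1.13, SE 0.18, adjusted p = 0.0226). Ier3, an immediate early gene, had 2115, 2352 and 2354 in WT and 3151 and 3108 in LC-/- DETCs (log2 0.46, SE 0.09, adjusted p = 0.0334). Both have higher values in KCs than in DETCs, at 6911 to 8636 for Ptgs2 and 6222 to 6962 for Ier3 in WT KCs. With the keratinocyte product subtracted and values under 0 set to 0, neither was called by limma, nor was any other gene. The log2 fold change was then 0.26 for Ier3 (adjusted p = 0.694). For Ptgs2 the product exceeded the DETC value in WT mice 2 and 3 and in LC-/- mouse 3, which were set to 0. Most of what remained lay in LC-/- mouse 2. Its log2 fold change of 2.88 (adjusted p = 0.722) therefore does not measure the size of a change. The part of the keratinocyte signal in these 2 changes was not tested.

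Immediate early genes mark cells activated during sorting or before it. Over 22 of them the median log2 fold change was 0.01 in KCs. Fosl1 was called higher there and 0 lower, where 5.37% of all genes tested were called higher and 1.85% lower. In DETCs, where 3.13% of all genes tested were called higher, Egr3 was called higher and 0 lower. The median of the 22 genes was 0.31 in DETCs, and 20 of these 22 lay above 0. Their summed normalized counts were 476270 to 560435 in WT and 600649 to 681918 in LC-/- DETCs, without overlap, and 565198 to 575163 in WT and 523921 to 622134 in LC-/- KCs. The part of these genes' change in the DETC values of Rela, Nfkb2, Rel and Nfkbie was not tested. The DETC gate could also hold other T cells: over 15 genes of dermal gamma-delta T17 and alpha-beta T cells the summed normalized counts were 13620 to 16782 in WT and 11109 to 17140 in LC-/- DETCs, and the groups overlapped.

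The calls of single pathway genes rested on few libraries. With 1 library left out, each KC call named above held in at most 2 of 6 fits, those without WT mouse 3 or LC-/- mouse 2, and each DETC call in 1 of 5, without WT mouse 1 or, for Ptgs2, LC-/- mouse 3. No called fold change of these genes changed sign in those fits.

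**Figure D5:**
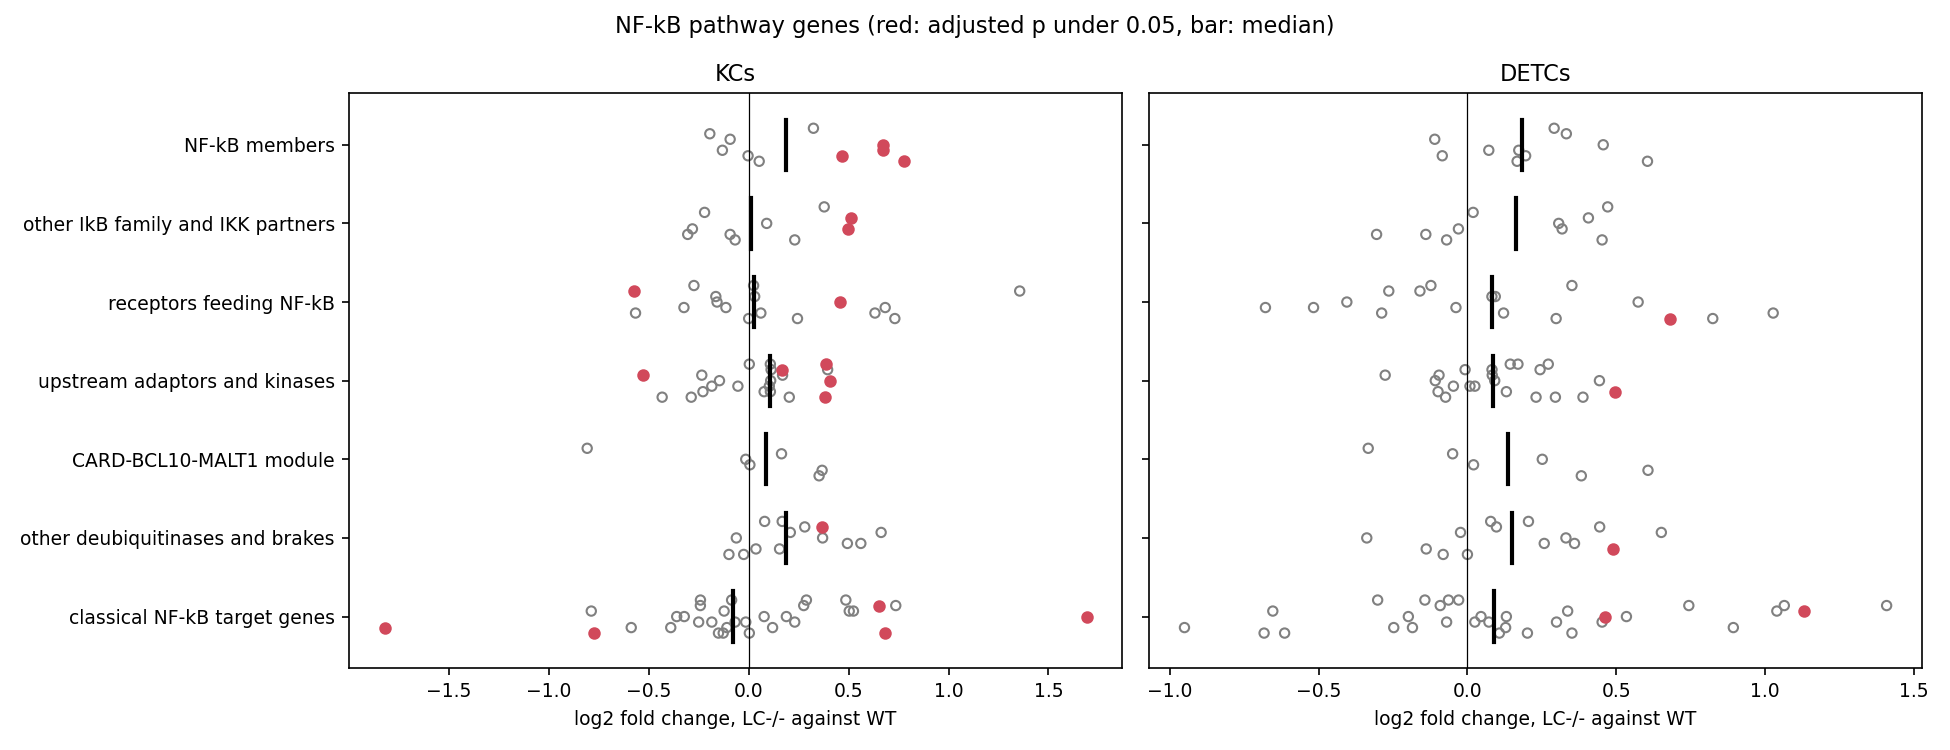
Log2 fold change of LC-/- against WT (x axis) for each tested gene of the NF-kB lists (y axis), in KCs and in DETCs, with red points for an adjusted p under 0.05 (limma) and bars for the list's median. The classical target genes spread on both sides of 0 in KCs, with a median of -0.08.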

How the data were processed

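Poly-A RNA libraries (KAPA mRNA Hyper Prep, Illumina NextSeq, paired-end) were trimmed with cutadapt, aligned to GRCm38 with hisat2 and counted per gene with featureCounts by the authors; the strand setting was not given in the sources used here. The deposited signal is the gene count divided by a size factor (DESeq2 in the submitters' processing notes; median of ratios in the study's methods). Whole reads were recovered from the value of 1 read in each library, and 100.0% of values came out whole within 0.01 reads. The sum of reads is the depth of a library, and intervals cover the spread between libraries.

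Gene symbols, positions and exon lengths were taken from GENCODE M21, which held 52403 of the 52550 gene IDs. Genes with over 1 CPM in at least 2 libraries were kept (14419). The main test was limma 3.58.1 (R 4.3.3) with a trend on log2(normalized count + 1), within the libraries compared, with Benjamini-Hochberg adjustment over all genes kept; a call is an adjusted p under 0.05. The 95% intervals come from the same fit. Count tests on the recovered reads were alternatives: in KCs edgeR 4.0.16 called 1783 genes and DESeq2 1.42.0 called 1752, against 1042 by limma, and in DETCs 483 and 1079, against 514. Other alternatives were pseudocounts, filters, size factors, quantile normalization, the variance prior, a joint fit, a replicate block and each library left out. The pipeline was tested on simulated data.

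The members and lists were chosen with earlier results of these data known. All 10 members are named, and from each pathway list the called genes, at most 5 per list and population by absolute log2 fold change, or the largest change where a list had no call. Fold changes of the lists stand beside the median of all genes, -0.01 in KCs and 0.02 in DETCs. No 2 libraries of a group were near-identical (chi-square over its degrees of freedom, 8.38 to 25.3), so each counted as 1 replicate. Every sample column was used. Differences in log2(normalized count + 1) understate those of low genes. Of the genes most like Rel and of the T cell markers called, some are not reported here.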

Additional observations from a re-analysis of the deposited data

Results flagged for a closer look

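By the interaction test over all 11 libraries (limma), 2 of the named pathway genes, Tnf and Tnfaip2, passed the threshold. This test asks whether the LC-/- effect differs between DETCs and KCs. None of the 10 NF-kB genes passed it, where 0.798% of all genes tested did. Tnf and Tnfaip2 were named because limma called them in KCs. The interaction uses those same KC values, so it gives no separate support for a difference. With same-numbered KC and DETC libraries as a replicate block, neither was called: the differences were 0.91 for Tnf (adjusted p = 0.0702) and 2.67 for Tnfaip2 (adjusted p = 0.140) on the log2 scale. For Tnf the difference of the effects was 0.88 on the log2 scale (interval 0.48 to 1.27, adjusted p = 0.0492): 0.11 (adjusted p = 0.653) in DETCs, with normalized counts of 2579, 2875 and 2727 in WT and 2638 and 3264 in LC-/-, and -0.77 (adjusted p = 0.0426) in KCs. Over the 20 alternatives the adjusted p of this difference ran from 0.000938 to 0.303, and 4 of them kept it under 0.05, none of them a fit with 1 library left out.

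For Tnfaip2 the difference was 2.71 (interval 1.66 to 3.77, adjusted p = 0.0244), with an effect of 0.89 (adjusted p = 0.184) in DETCs, where WT libraries had normalized counts of 110, 53.6 and 89.5 and LC-/- libraries 184 and 124. Its KC value in LC-/- mice, 2.46 ± 0.60 normalized counts (SD, n = 3), is at the floor of 3 reads, so the size of this difference depends on the pseudocount. Tnfaip2 passed the filter on low counts only through its DETC libraries. Over the alternatives, of which DESeq2 gave no adjusted p, its adjusted p ran from 0.0232 to 0.140, and 10 kept it under 0.05. The cause of either difference was not tested.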

How the results depend on the processing

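Of 1047 log2 fold changes of single genes recomputed under an alternative, 800 kept their direction and their side of the threshold, 210 kept the direction and lost the call, 10 gained a call and 27 changed sign. For Tnfaip2 DESeq2 gave no adjusted p in KCs and in the interaction, and these are not counted. In KCs the 4 calls became 2 without a filter and 2 under quantile normalization, and 0 to 3 with 1 library left out. In DETCs the 0 calls became 2 with DESeq2 and 2 in one fit over all 11 libraries, and 0 to 2 with 1 library left out. None of the alternatives moved the 8 calls of WT DETCs against WT KCs by more than 1.5 times (6 to 8 with 1 library left out) or gave a call among the 10 genes in the interaction. The cause of these changes was not tested, except that fewer libraries leave fewer degrees of freedom.

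The sign changes concern uncalled values and, for Rel, a called one. Under quantile normalization they were Nfkb1 (-0.050) and Tnfaip3 (-0.24) in DETCs, and Nfkb1 (-0.12), Rel (-0.066) and Relb (-0.088) in WT DETCs against WT KCs. Subtracting the keratinocyte share moved Nfkb1 to -0.033 in DETCs. With 1 library left out, values ran from -0.042 to 0.19 for Tnfaip3 and from -0.15 to 0.0010 for Ikbkb in DETCs, from -0.034 to 0.21 for Chuk and from -0.037 to 0.021 for Ikbkb in KCs, and, in the interaction, from -0.37 to 0.024 for Rela, from -0.11 to 0.031 for Rel, from -0.11 to 0.056 for Nfkbia, from -0.045 to 0.21 for Chuk and from -0.15 to 0.0041 for Ikbkb.

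Counts of calls over all genes that moved by over 1.5 times were, in KCs, 73 without a filter, 633 under quantile normalization, 1740 with a minimum mean of 10, 1783 with edgeR and 1752 with DESeq2, against 1042. In DETCs they were 0 without a filter and without the variance trend, 263 under quantile normalization, 1079 with DESeq2 and 959 in the joint fit, against 514; in the interaction, 22 without the trend and 312 with DESeq2, against 115. Quantile normalization changed the higher and lower calls of WT DETCs against WT KCs from 5906 and 5059 to 4693 and 6658, those of the LC-/- effect in DETCs from 452 and 62 to 178 and 85, and those of the interaction from 89 and 26 to 70 and 48. With 1 library left out, the calls ran from 5 to 721 in KCs, from 35 to 590 in DETCs and from 32 to 138 in the interaction.

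As to pairing, the deviations of KC and DETC libraries with the same number correlated at -0.03 for WT mouse 1 and at 0.11 to 0.17 for the other 4 pairs. Of the 5 DETC libraries, 4 matched their own number best among the 3 KC libraries of their genotype. Deviations were taken from group means, so those of the 2 LC-/- DETC libraries mirror each other and are not separate matches. This count cannot decide whether the libraries are paired. With a replicate block 8 of the 10 genes were called between WT DETCs and WT KCs, and the interaction calls over all genes were 18 against 115, with 0 of the 10 genes called; the Tnf and Tnfaip2 differences were then no longer called. The lowest value of the 10 genes was 99 reads, that of Nfkbie in the KC library of LC-/- mouse 1. The part of depth in the spread of Nfkbie in KCs was not tested. Depth does limit Tnfaip2.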
